A study of Sus scrofa with 8 samples.

Results

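The genes described here belong to developmental signalling pathways that also act in fat: AXIN1, WNT8B and TCIM of the Wnt pathway, ID1 of the bone morphogenetic protein (BMP) pathway and DCHS1 of the Fat-Dachsous pathway. They were chosen by name from the 458 genes for which normalized counts of each pig were deposited, with earlier results of these data known. That all 5 are among those genes is therefore no result. Those 458 genes are the ones that the authors had called differentially expressed between the breeds in these same pigs, so the tests below only describe the separation of the pigs and are not independent evidence of a difference. Dorsal subcutaneous fat was taken at slaughter from 4 Alentejano (AL) and 4 Bísaro (BI) pigs, with 1 library per pig. Each breed was represented by castrated males of pure descent. Housing was free range, commercial feed was available ad libitum, and the labels give 150 kg as the carcass weight of each pig. The paper instead gives about 150 kg as the body weight at slaughter. AL is a fat-type breed of the Mediterranean group and BI a leaner breed of the Celtic group. An age is not given in the labels. According to the paper, AL pigs averaged more days on trial than BI pigs, and this difference cannot be separated from breed. RNA integrity is given there as a range over the samples and not per pig.

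In the canonical Wnt pathway, a secreted Wnt ligand binds a Frizzled receptor and its co-receptor LRP5 or LRP6, and this stops a complex built on axin from marking β-catenin for destruction, so that β-catenin can act with TCF/LEF factors in the nucleus. Wnt signalling is known to hold preadipocytes back from becoming adipocytes, whereas BMP ligands, which act through SMAD proteins and switch on the inhibitor of DNA binding (ID) genes, can commit precursor cells to the adipocyte lineage. The very large cadherins of the Dachsous and Fat families bind each other between neighbouring cells and are known for orienting cells within a tissue and for links to the Hippo growth pathway.

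Of the 5 genes, AXIN1, TCIM, ID1 and DCHS1 had higher mean counts in BI and WNT8B in AL. The breeds did not overlap for AXIN1, TCIM and DCHS1, in which all 4 BI pigs exceeded all 4 AL pigs, nor for WNT8B, in which all 4 AL pigs exceeded all 4 BI pigs. They did overlap for ID1. In all, 4 of the 5 genes passed an exact permutation test, two-sided throughout and taken over all 70 ways to divide the 8 pigs equally, whose lowest attainable p of 0.029 requires that the breeds do not overlap. Among all 458 genes 79.5% passed, so that 4 of 5 lies at the background of this set of genes. By direction, 31.2% of the 458 genes passed with higher values in BI and 48.3% with higher values in AL, against 3 and 1 of the 5 genes. The log2 fold change (log2 FC) subtracts the BI mean of log2(normalized count + 1) from the AL mean, which gives genes higher in AL a positive sign and understates changes at low counts. Its median was −1.14 over the 5 genes and 0.83 over the 458, and the median of its size was 1.35 and 1.19, respectively.

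These genes were counted at low depth. A normalized count is the number of reads of a gene divided by the size factor of that pig, a scale for its depth, and the size factors recovered from the values lay between 0.675 and 1.10 in AL and between 1.06 and 1.46 in BI. The number of reads behind a value ran from 4 in an AL pig for DCHS1 and 1 in a BI pig for WNT8B up to 199 in a BI pig for TCIM. The mean over the 8 pigs was 12.2 normalized counts for WNT8B, 14.8 for DCHS1, 20.8 for ID1, 40.3 for AXIN1 and 70.5 for TCIM, against a median of 93.6 over the 458 genes. Genes higher in BI had a lower median mean count in this set as a whole, 35.3 against 294 for genes higher in AL. Adipocyte markers were looked up in the authors' table of 10710 genes, which goes down to a mean count of 1.89. All 7 sought were listed, with mean counts from 77.5 for LEP to 1567 for PLIN1. Listed markers of other cell types ran from 3.87 for AIF1 (macrophage) to 2188 for COL1A1 (stromal). Among them, CSF1R (macrophage) stood at 1385 and CKM (skeletal muscle) at 987. These means therefore do not test the adipocyte label of the tissue. ADIPOQ, which encodes the abundant adipocyte hormone adiponectin and has no gene on the opposite strand within 5 kb, had a mean of only 173, against 2818 for the ligand BMP6. The libraries were stranded, and the strand setting of the counting is not given in the sources used here. Of the 8320 genes of that table with a single RefSeq position, 63.6% have a gene on the opposite strand within 5 kb, and of the 100 with the highest means 98 do. From these counts alone, reads of a gene's own strand and of the opposite one therefore cannot be told apart for any gene, TCIM and ID1 included. Each value below is given as counted under the name of its gene. The paper compared its fold changes with qPCR for a set of genes, and reported substantial agreement, although significance differed between the methods for some genes. That set held ADIPOQ and LEP but not AXIN1, WNT8B, TCIM, ID1 or DCHS1. In bulk tissue, fewer cells of a type and less RNA per cell cannot be told apart.

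**Figure D1:**
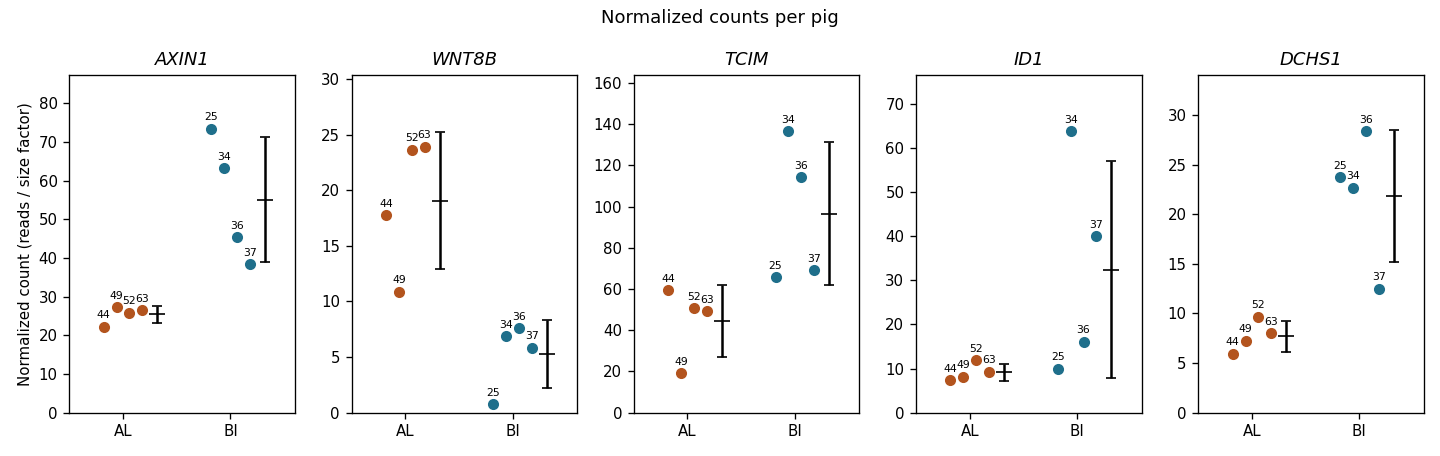
Normalized counts (reads divided by the size factor, vertical axes from 0) of AXIN1, WNT8B, TCIM, ID1 and DCHS1 in each of the 4 AL and 4 BI pigs. Points are pigs, labelled with their replicate number, and the bars to the right of the points give the mean ± SD. The breeds are separate for AXIN1, WNT8B, TCIM and DCHS1, whereas the lowest BI pig for ID1, replicate 25 with 9.94, lies among the AL pigs.

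All 5 genes lie on the forward strand of Sscrofa11.1, and their positions were taken from the RefSeq annotation by symbol. RefSeq lists TCIM as C17H8orf4, after its older name C8orf4. TCIM and ID1 are short genes on chromosome 17, the former with a single exon and neither with another gene within 5 kb, whereas AXIN1, WNT8B and DCHS1 have opposite-strand neighbours. For AXIN1, WNT8B, TCIM and ID1, the 300 bases around the annotated start (250 before it and 50 from it on) were searched on both strands for 4 motifs. These were CTTTGA, the core read by TCF/LEF factors, GGCGCC, a GC-rich element bound by BMP-activated SMADs, GTCTAGAC, the SMAD palindrome, and CACGTG, an E-box read by many helix-loop-helix factors. No motif overlapped another. The windows of AXIN1 and WNT8B are shown because they carry these motifs, and that of ID1 because ID1 is the BMP target among the genes, each 5′ to 3′ with matches in capitals.
AXIN1 (chr3:41344658-41344957, forward strand): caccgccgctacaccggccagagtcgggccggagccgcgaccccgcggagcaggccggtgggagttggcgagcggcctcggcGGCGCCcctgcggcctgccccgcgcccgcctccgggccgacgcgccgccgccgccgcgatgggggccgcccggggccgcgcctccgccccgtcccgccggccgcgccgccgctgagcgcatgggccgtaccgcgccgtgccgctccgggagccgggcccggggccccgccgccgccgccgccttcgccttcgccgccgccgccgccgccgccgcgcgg
WNT8B (chr14:111562028-111562327, forward strand): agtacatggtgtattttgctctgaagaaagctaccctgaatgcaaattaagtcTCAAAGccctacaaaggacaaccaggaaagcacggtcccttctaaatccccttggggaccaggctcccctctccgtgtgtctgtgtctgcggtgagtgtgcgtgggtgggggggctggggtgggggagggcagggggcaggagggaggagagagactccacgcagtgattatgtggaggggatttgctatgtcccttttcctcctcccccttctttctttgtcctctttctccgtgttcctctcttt
ID1 (chr17:35316268-35316567, forward strand): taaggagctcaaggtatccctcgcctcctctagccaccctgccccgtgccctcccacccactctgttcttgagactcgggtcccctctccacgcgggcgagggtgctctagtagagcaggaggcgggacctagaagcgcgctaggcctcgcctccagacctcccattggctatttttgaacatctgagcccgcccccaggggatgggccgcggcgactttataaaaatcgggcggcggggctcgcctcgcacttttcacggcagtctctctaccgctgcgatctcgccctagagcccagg

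The AXIN1 window holds GGCGCC at 168 bases before the start. GGCGCC occurs in 19.8% of the 19556 windows of this length around protein-coding genes, but that of AXIN1 is very rich in G and C, at 87.3%, and among the 220 windows with at least 85% of G and C it occurs in 77.7%. The WNT8B window holds the TCF/LEF core on the reverse strand, 197 bases before the start, and 12.3% of all windows hold that core. The windows of ID1 and TCIM hold none of the 4 motifs, which says only that these letters are not in these 300 bases. The SMAD palindrome occurs in 0.194% and the E-box in 7.92% of all windows, and neither occurs in those of the 4 genes searched.

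WNT8B (ENSSSCG00000006164) encodes a secreted Wnt ligand known from the developing forebrain, and it was the only one of the 5 genes with higher values in AL. Normalized counts were 17.8, 10.9, 23.7 and 23.9 in AL replicates 44, 49, 52 and 63, and BI replicates 25, 34, 36 and 37 had 0.765, 6.87, 7.56 and 5.83. Every AL pig lay above every BI pig, with the lowest AL pig, replicate 49, nearest to BI replicate 36, and BI replicate 25 held 1 read of this gene. AL pigs averaged 19.1 ± 6.14 and BI pigs 5.26 ± 3.08 (both SD, n = 4), 3.62-fold higher in AL. The log2 FC came to 1.85 ± 0.59 (SE, exact permutation p = 0.029), and it was 1.32 without BI replicate 25 (exact permutation p = 0.057), with the breeds still apart. With the counts rescaled over the 458 genes, which lowers the log2 FC of the set as a whole, the breeds overlapped and the log2 FC was 1.43 by a median of ratios (exact permutation p = 0.057) and 1.32 by an upper quartile (exact permutation p = 0.086). With a pseudocount of 10 it was 0.93.

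The position of WNT8B bears on its reads. It spans 111562278 to 111589897 on chromosome 14, and its 3′ part overlaps SEC31B on the opposite strand by 3981 bases, 1317 of which are exonic in both genes. A long noncoding gene, LOC106509031, lies on the opposite strand within it, with no shared exonic base. Without the strand setting, reads of WNT8B and SEC31B cannot be told apart. SEC31B was not matched to a gene of the authors' table.

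AXIN1 (ENSSSCG00000023204), the scaffold of the complex that marks β-catenin for destruction, had values in AL within a narrow range, with 22.2, 27.2, 25.8 and 26.6 normalized counts in AL replicates 44, 49, 52 and 63. BI replicates 25, 34, 36 and 37 had 73.4, 63.2, 45.4 and 38.3. All BI pigs were higher, and the spread among them was wider, with a coefficient of variation of 29.2% against 8.75% in AL. AL pigs averaged 25.4 ± 2.23 and BI pigs 55.1 ± 16.1 (both SD, n = 4), 2.16-fold higher in BI, and the log2 FC came to −1.04 ± 0.22 (SE, exact permutation p = 0.029). No other of the 5 genes had so small a standard error, and omitting any 1 pig kept the value between −1.20 and −0.89. Without any 1 of the AL pigs the exact permutation p was 0.057, with the breeds still apart. Rescaling by the upper quartile of the 458 genes gave −1.67. AXIN1 has 10 blocks of exons on chromosome 3 from 41344908 to 41393999, and the end of PDIA2 on the opposite strand lies 267 bases beyond its own 3′ end.

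TCIM (ENSSSCG00000032320), a small protein described as a positive regulator of Wnt signalling that binds the β-catenin antagonist Chibby, was the most abundant of the 5 genes both in counts and per kb of exon. Normalized counts were 59.3, 19.0, 50.5 and 49.1 in AL replicates 44, 49, 52 and 63, and BI replicates 25, 34, 36 and 37 had 65.8, 136.7, 114 and 69.2. The breeds did not overlap, but AL replicate 44 lay close under BI replicate 25, and AL replicate 49 lay well below the other 3 AL pigs. AL pigs averaged 44.5 ± 17.5 and BI pigs 96.5 ± 34.8 (both SD, n = 4), 2.17-fold higher in BI. The log2 FC came to −1.14 ± 0.44 (SE, exact permutation p = 0.029). Without AL replicate 49 it was −0.79 and missed the threshold of the same exact test (p = 0.086), although the remaining pigs of the breeds stayed apart. Without BI replicate 34 or 36 the exact permutation p was 0.057, and with the upper quartile of the 458 genes the log2 FC was −1.78. TCIM is the only one of the 5 genes whose SD on the log2 scale was larger in AL (0.72) than in BI (0.52). It lies on chromosome 17 from 9441488 to 9443053.

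ID1 (ENSSSCG00000037016), a helix-loop-helix protein without a DNA-binding region that is switched on directly by BMP signalling and is known from endothelial and precursor cells, had even values in AL and very uneven ones in BI. In AL replicates 44, 49, 52 and 63 the values were 7.41, 8.16, 11.8 and 9.30 normalized counts, or between 5 and 11 reads. BI replicates 25, 34, 36 and 37 had 9.94, 63.9, 16.1 and 39.997. BI replicates 34 and 37 stood far above all other pigs, BI replicate 36 was above the highest AL pig, and BI replicate 25 lay between AL replicates 63 and 52. AL pigs averaged 9.17 ± 1.93 and BI pigs 32.5 ± 24.6 (both SD, n = 4), 3.54-fold higher in BI, with a coefficient of variation of 75.9% in BI. The log2 FC of −1.40 (standard error 0.60) missed the threshold of the exact permutation test (p = 0.057). It was −0.97 without BI replicate 34 and −1.83 without BI replicate 25, in which case all remaining BI pigs lay above AL (exact permutation p = 0.029). They did not overlap either once the counts had been rescaled over the 458 genes, with a log2 FC of −1.88 by the median of ratios and −1.996 by the upper quartile. By limma over the 458 genes, the adjusted p-value of ID1 was 0.016, but limma called 99.3% of these genes. ID1 has 2 exons on chromosome 17 from 35316518 to 35317742.

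DCHS1 (ENSSSCG00000029189), the Dachsous cadherin that pairs with FAT4 on the facing cell, had the fewest reads in AL, between 4 and 9 per pig. Normalized counts were 5.93, 7.25, 9.68 and 7.97 in AL replicates 44, 49, 52 and 63, and BI replicates 25, 34, 36 and 37 had 23.7, 22.7, 28.3 and 12.5. Of the BI pigs, 3 lay close together and replicate 37 lay below them, nearer to AL replicate 52 than to any other BI pig. AL pigs averaged 7.71 ± 1.56 and BI pigs 21.8 ± 6.68 (both SD, n = 4), 2.83-fold higher in BI. The log2 FC came to −1.35 ± 0.28 (SE, exact permutation p = 0.029), and omitting any 1 pig kept it between −1.58 and −1.21, with an exact permutation p of 0.057 without any 1 of the AL pigs. With so few reads the pseudocount mattered, and a pseudocount of 10 gave −0.82. The gene spans 3099525 to 3134825 on chromosome 9 with 23 blocks of exons, and the long noncoding gene LOC106507820 starts 160 bases before it on the opposite strand.

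**Figure D2:**
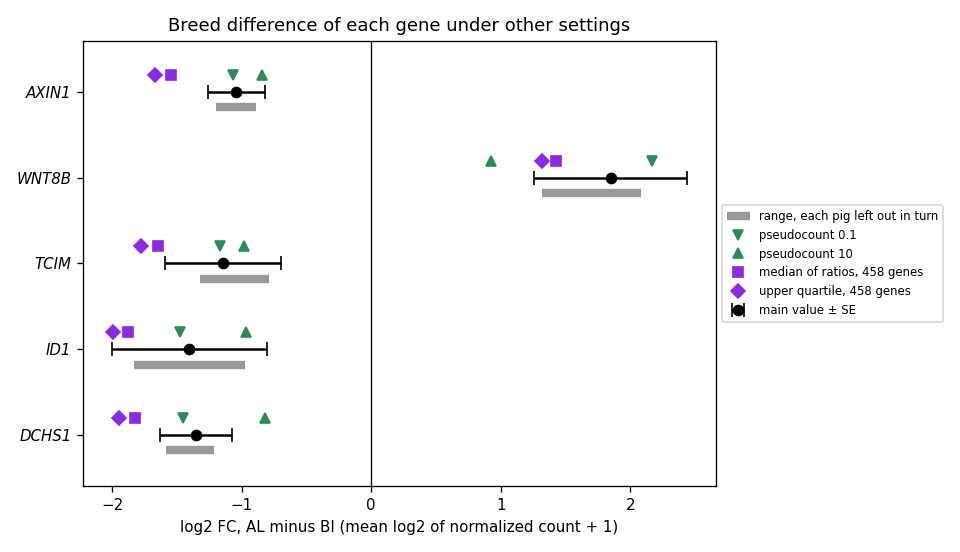
The log2 FC (AL minus BI, horizontal axis) of each of the 5 genes. Black points and bars are the main value ± standard error, grey bars the range over omitting 1 pig at a time, green triangles other pseudocounts and purple symbols rescaling over the 458 genes. No setting shown crosses 0. For the 4 genes whose breeds do not overlap, only the rescalings could have done so. Both rescalings lie to the left of the main value for every gene. The value of WNT8B runs from 0.93 with a pseudocount of 10 to 2.17 with one of 0.1.

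The order of the pigs differed between genes, so that no pig was the highest in all of them. In BI, replicate 25 had the highest AXIN1 value of the 8 pigs but the lowest BI value of WNT8B, TCIM and ID1, and replicate 34 had the highest TCIM and ID1. In AL, replicate 44 was the lowest of the 8 pigs for AXIN1, ID1 and DCHS1, and replicate 49 was the lowest AL pig for WNT8B and TCIM. To compare profiles, each gene was centred on its own mean log2(normalized count + 1) over the 8 pigs, and the mean absolute difference between profiles was taken. Among the 5 genes AXIN1 and DCHS1 were most alike, with a mean absolute difference of 0.24, followed by TCIM and DCHS1 with 0.47. The profile of WNT8B differed from the other 4 by 1.45 or more. This only restates its opposite breed difference. In each of these pairs the value equals the mean of the sizes of the log2 FC of both genes. The SD on the log2 scale was larger in BI than in AL for 4 of the 5 genes, and for 69.2% of the 458 genes.

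Among 403 other named genes with values per pig and a mean of at least 10, the profile most like that of AXIN1 was that of LAMB2, a laminin subunit of basement membranes, with a mean absolute difference of 0.055. LAMB2 averaged 101 ± 6.38 in AL and 210.4 ± 57.7 in BI (both SD, n = 4), with its BI pigs in the same order as for AXIN1. TNS2, a focal adhesion protein, came next with 0.12. The genes most like DCHS1 were ZBTB16, a zinc finger transcription factor, with 0.17 and ADAMTS10, a secreted metalloprotease, with 0.20. Those most like TCIM were INTS11, the catalytic subunit of the Integrator complex, with 0.22 and DUSP1, a phosphatase that switches off MAP kinases, with 0.23. The profiles of ID1 and WNT8B had no such close neighbours: the nearest were PIK3R4 (0.37) and AP5Z1 (0.40) for ID1, and CIAO3 (0.42) and GOT2 (0.44) for WNT8B. Because these 458 genes were all selected for a breed difference, part of this likeness was fixed by the selection. The measure is also not scaled to the spread, so genes with a wide spread tend to lie farther from others. ID1 and WNT8B had the largest SDs in BI on the log2 scale among the 5 genes (1.17 and 1.07).

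**Figure D3:**
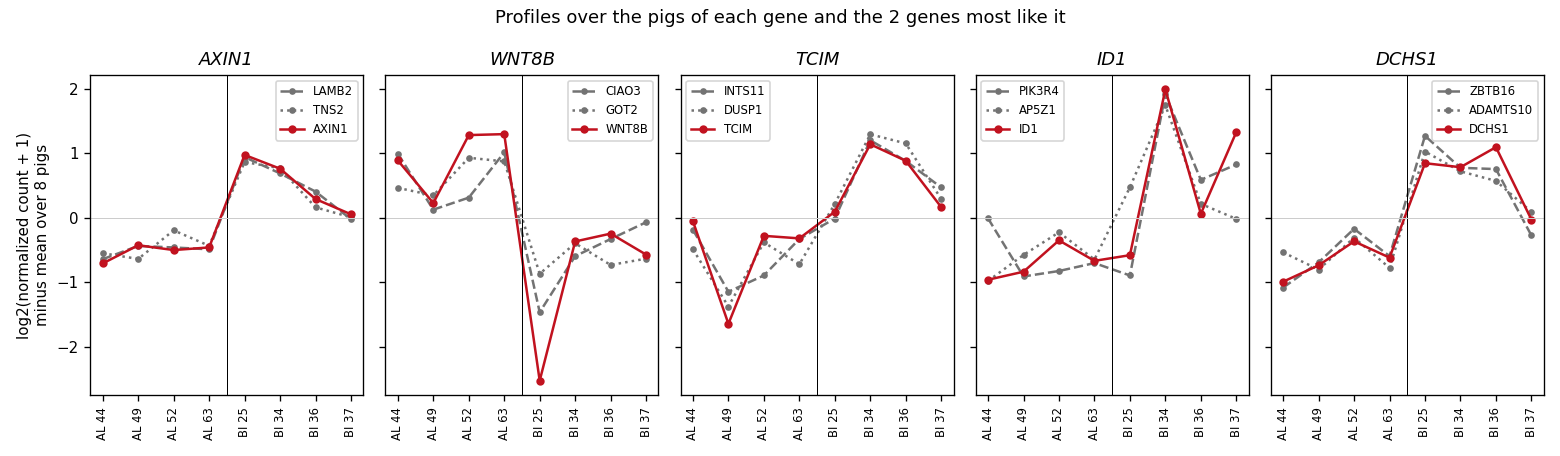
Profiles over the 8 pigs (horizontal axis, AL left and BI right of the vertical line) of each gene in red and of the 2 other genes most like it in grey, as log2(normalized count + 1) minus the mean over the 8 pigs. AXIN1 and LAMB2 nearly coincide (mean absolute difference 0.055), whereas WNT8B departs from both of its nearest genes in BI replicate 25.

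Among the 458 genes the 5 genes lie at the side of low counts. The log2 FC of WNT8B has rank 49 by size in the 458, that of ID1 142, that of DCHS1 160, that of TCIM 252 and that of AXIN1 301. The median log2 FC of genes higher in BI was −1.29 over the whole set, and −1.25 over the 4 genes of these pathways with higher means in BI.

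**Figure D4:**
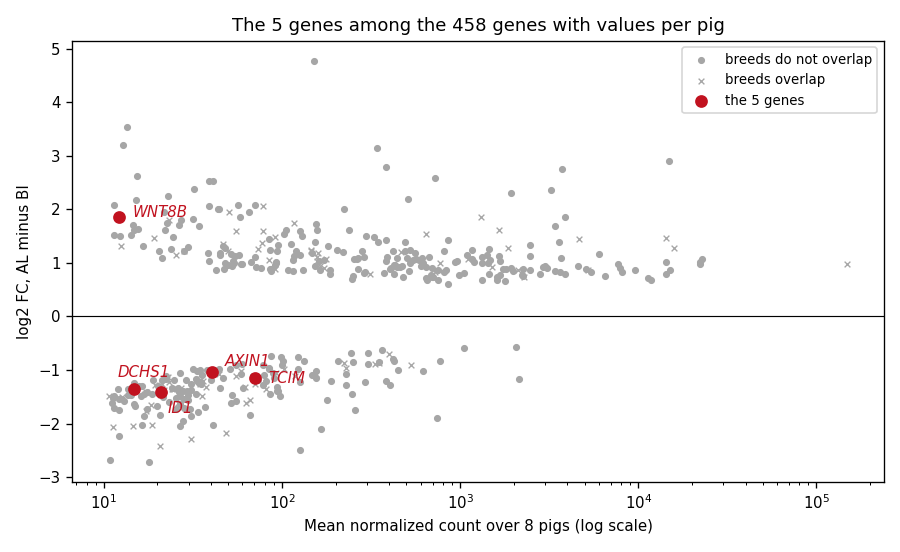
The log2 FC (AL minus BI) of the 458 genes against their mean normalized count over the 8 pigs (log scale). Grey dots are genes whose breeds do not overlap, grey crosses genes whose breeds overlap, and red points the 5 genes. WNT8B (12.2 counts, log2 FC 1.85) is above 0 and the other 4 are below it.

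The surroundings of these genes in their pathways were described with 13 lists holding 169 genes. Of these genes, 98 were matched to the authors' table of 10710 genes, which gives 1 mean normalized count per gene over the 8 pigs, and 7 had values per pig. That is 7.14% of the 98, and 4.28% of the genes of the table have values per pig. These shares cannot be compared, because 5 of the 7 were chosen from the genes with values per pig and the lists cover their pathways. The 7 are the 5 genes described above, the coactivator CREBBP and the ligand BMP6. For the other 91 only a mean over both breeds was used, so that nothing is said of a breed difference in them.

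CREBBP, an acetyltransferase that acts with β-catenin and with SMADs among many partners, was higher in BI. It had 43.0, 41.7, 53.8 and 30.5 normalized counts in AL replicates 44, 49, 52 and 63 and 141, 105, 83.1 and 54.2 in BI replicates 25, 34, 36 and 37. The breeds were separate only narrowly, by AL replicate 52 and BI replicate 37, and the log2 FC came to −1.11 ± 0.33 (SE, exact permutation p = 0.029). BMP6, a BMP ligand, was higher in AL, where it averaged 3563 ± 562 normalized counts against 2072 ± 410.2 in BI (both SD, n = 4). Its 4 AL pigs lay between 3003 and 4340 and its 4 BI pigs between 1458 and 2290.1, for a log2 FC that came to 0.79 ± 0.20 (SE, exact permutation p = 0.029). The ligand BMP6 and the BMP target ID1 had their higher means in different breeds, but the breeds overlapped for ID1 (exact permutation p = 0.057). A link between BMP6 and ID1 was not tested, and the unknown strand setting limits the values of both.

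Levels of different genes were compared per kb of exon of the RefSeq annotation, with all annotated exons of a gene joined. The counts carry Ensembl identifiers, and the annotations may differ, so values per kb are approximate. Of the 19 Wnt ligands 8 were listed, with WNT9B at a mean of 6.46, WNT2B at 6.39 and WNT11 at 5.69 normalized counts per kb, all above the 2.79 of WNT8B. Among the receptors, FZD4 (14.6 per kb) and LRP5 (10.2 per kb) were the highest, and among the secreted antagonists SFRP5 (58.8 per kb) and SFRP4 (44.4 per kb). In the destruction complex, AXIN1 at 4.44 per kb exceeded its paralogue AXIN2 at 0.93, and CTNNB1, which encodes β-catenin, stood at 5.11, the kinases GSK3A at 63.4 and GSK3B at 1.08, and APC at 1.46. TCIM, with 45.0 per kb, was the highest of the nuclear factors with an exon length.

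All 4 ID genes were listed. ID3 had a mean of 25.1 normalized counts per kb, ID1 20.9, ID2 4.24 and ID4 3.91. Among the BMP receptors, ENG stood at 248 per kb, ACVR2A at 33.8 and BMPR1A at 20.6, and BMP6 at 1715 per kb was far above GDF5, BMP4 and BMP2, which lay between 1.04 and 2.91. In the Fat-Dachsous list, FJX1, a kinase related to Four-jointed that acts on these cadherins, stood at 10.4 per kb, DCHS2 at 4.50, DCHS1 at 1.37, FAT2 at 0.82, FAT4 at 0.49 and FAT1 at 0.29. Without values per pig, no spread between pigs is known for these means, and their order was not tested.

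The 4 list genes with the highest means have genes on the other strand within 5 kb, as AXIN1, WNT8B, DCHS1 and CREBBP with their lower means also do. DVL2 shares 69 exonic bases at its 3′ end with ACADVL, ENG shares 19 with FPGS, the 3′ end of TXNDC5 lies 1324 bases from that of BMP6, and a protein-coding gene, C2H19orf25, ends 2374 bases from the end of APC2. The mean normalized count was 2236 for DVL2 and 420.5 for ACADVL, 1085 for ENG and 56.7 for FPGS, and 2818 for BMP6 and 98.3 for TXNDC5. The part of the strand setting and of the neighbours in these values was not tested.

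**Figure D5:**
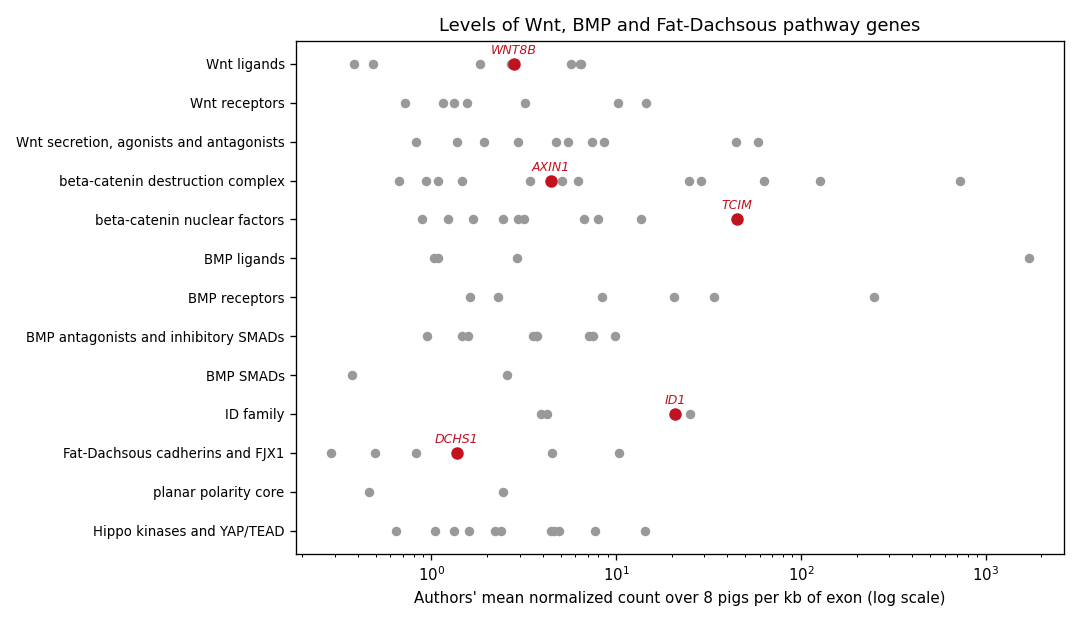
The authors' mean normalized count over the 8 pigs per kb of exon (horizontal log axis) of the listed genes with an exon length, by list. Red points are the 5 genes and grey points the others. TCIM (45.0) is the highest of its list and ID1 (20.9) the second of its own, WNT8B lies at 2.79, AXIN1 at 4.44 and DCHS1 at 1.37, and BMP6 (1715) is the highest of all.

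Of the markers of other cell types with values per pig, TIE1 alone separated the breeds. Of 7 endothelial markers, 5 were listed in the authors' table and 1, the receptor tyrosine kinase TIE1, had values per pig, from 10.4 to 18.6 normalized counts in AL and from 25.8 to 49.7 in BI, so that the breeds did not overlap (log2 FC −1.41 ± 0.26, SE, exact permutation p = 0.029). The other 4, PECAM1, CDH5, KDR and TEK, are not among the 458 genes that the authors called, and only their mean over both breeds was used. Of 6 skeletal muscle markers, MYH7 alone had values per pig, between 0.907 and 9.30 in AL and between 4.72 and 40.5 in BI (exact permutation p = 0.086). Of the adipocyte markers, FABP4 was higher in AL without overlap (log2 FC 1.10 ± 0.23, SE, exact permutation p = 0.029), and LEP had a log2 FC of 1.37 with overlapping breeds (exact permutation p = 0.057). None of the stromal, macrophage, smooth muscle and keratinocyte markers sought had values per pig. The part of the cell types in the values of AXIN1, TCIM, ID1, DCHS1 and WNT8B was not tested.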

How the data were processed

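Gene expression in dorsal subcutaneous fat was measured by RNA sequencing of 8 pigs. The authors trimmed the reads with Trim Galore 0.5.0, aligned them to Sscrofa11.1 with HISAT2 2.1.0, counted them per gene with HTSeq 0.11.1 and normalized them with DESeq2. In the deposited per-pig signal, each count had been divided by a size factor. The mean counts are the authors' means over the 8 pigs. The authors' fold changes and p-values, which are also listed, were not used. Every value per pig was within 0.02 reads of a whole multiple of 1 step, taken as the value of 1 read, in 100% of the values of each pig, and 359708 to 883622 reads per pig lay on the 458 genes.

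Means, SDs, log2 FC on log2(normalized count + 1) and two-sided exact permutation tests were computed for all 458 genes. The genes and lists were chosen with earlier results of these data known. Other genes named are list genes and markers with values per pig, annotated neighbours, the 2 genes with the profile most like each gene, and, from the table of means, relatives of the 5 genes and the 3 genes of highest mean in a list, of which those that show the levels around the 5 genes are given. The neighbours of DVL2, ENG, BMP6 and APC2 were chosen after their values were seen. Alternatives were pseudocounts of 0.1 and 10, rescaling over the 458 genes, other summaries and tests, a minimum mean of 50, and leaving out each pig. The strand setting of the counting is not given in the sources used here. The start window of DCHS1 is not reported here. The calculations were tested on simulated data. Symbols came from a table of Ensembl identifiers, which named 8923 of the 10710 genes. Python 3.11.15, NumPy 2.4.6, pandas 2.3.3, pysam 0.24.0, R 4.3.3 and limma 3.58.1 were used.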

Additional observations from a re-analysis of the deposited data

How the results depend on the processing

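Of the 80 values of the 5 genes under 16 alternatives, none changed direction. Among them, 62 stayed on the same side of the threshold or moved by less than 1 SD. The threshold was no longer passed by 14 and newly passed by 4. Part of this was fixed in advance. With 4 pigs against 4, other pseudocounts, the rank-sum test and the test on breed means cannot change a call. The rank-sum test and limma keep the main log2 FC. Leaving out a pig cannot reverse a gene whose breeds do not overlap. The rescalings lowered the median log2 FC of the 458 genes by construction, from 0.83 to 0.31 by the median of ratios and 0.18 by the upper quartile. With them the log2 FC of WNT8B was 1.43 and 1.32 and no longer passed, and that of ID1 was −1.88 and −1.996 and passed. Genes without overlap numbered 273 and 236 in place of 364, and calls higher in AL made up 37.4% and 25.4% of them in place of 60.7%. The log2 FC of ID1 also passed by limma (−1.40, adjusted p = 0.0163), which called 455 of the 458 genes.

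When 1 pig at a time was omitted, the log2 FC ran from −1.20 to −0.89 for AXIN1, 1.32 to 2.08 for WNT8B, −1.32 to −0.79 for TCIM, −1.83 to −0.97 for ID1 and −1.58 to −1.21 for DCHS1, with 4 or 5 of these genes and 368 to 411 of the 458 without overlap. AXIN1 and DCHS1 no longer passed without any 1 of the AL pigs (exact permutation p = 0.057), WNT8B without BI replicate 25, and TCIM without AL replicate 49, BI replicate 34 or BI replicate 36. Omitting a pig leaves 35 splits of 3 pigs against 4, and the breeds of these genes still did not overlap. With uneven groups another split can give as large a difference, so breeds that do not overlap need not pass. For AXIN1 without AL replicate 49, the log2 FC was −1.07, larger in size than the main value of −1.04. A minimum mean of 50 normalized counts left 1 of the 5 genes, TCIM. The value moved by over 1.5 times with a pseudocount of 10 for WNT8B (0.93) and DCHS1 (−0.82), and with the upper quartile for AXIN1 (−1.67) and TCIM (−1.78). On breed medians 4 pigs against 4 cannot pass the exact test, so these were used as values only. The planned edgeR and DESeq2 tests on recovered reads were not run. A separate check of the recovery accepted it in 3 of the 8 pigs only, with few low values to judge by in the others. Read numbers are therefore given here as a description. No paired analysis was possible because the breeds share no replicate numbers. The values rest on 1 to 199 reads each, and counting error and differences between pigs both enter the SD.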
